A study of Mus musculus with 12 samples.

Results

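Lysosomal genes were followed in macrophages sorted from mouse mammary ducts, leaving out the proteases except the peptidase Tpp1. They were the subunits of the lysosomal proton pump, the major membrane proteins of the organelle, and its hydrolases with their activator proteins. The transcription factors that control them were included. A set of 40 genes was taken by symbol from the count table of 27179 genes, and all 40 were among the 12672 genes with enough counts to be tested. They were 15 proton pump genes, 5 membrane proteins, 14 hydrolases, 3 activators and granulin genes, and 3 transcription factors. The cells came from C57BL/6 females at 4 stages: virgin, pregnant at day 16.5, lactating, and post-weaning at 1 month after weaning. The labels give 3 biological replicates a stage, and each library was made from 2000 cells. No stage carried a genetic change or a treatment. Not given in the sources used here were the day of lactation, the sorting gate and the number of animals behind a library, so p-values measure the spread between these libraries.

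The lysosome breaks down material that a cell takes up or discards. A proton pump, the V-ATPase, keeps its lumen acid: the V1 sector on the cytosolic side splits ATP and the V0 sector in the membrane carries the protons. The hydrolases work at that acid pH, and heavily glycosylated membrane proteins line the organelle. The factors TFEB, TFE3 and MITF bind a short element, CACGTG with its flanks, in front of many lysosomal genes. Macrophages depend on lysosomes to digest engulfed cells, and ductal macrophages lie within the mammary epithelium and take up dying cells as the gland regresses after lactation.

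The element was looked up in RefSeq promoter windows of build GRCm38.p6, from 250 bases before to 50 bases after each annotated start, which were given for 35 of the 40 genes. The core CACGTG, searched on both strands, stood in the windows of 10 of these 35 genes (28.6%) and in 7.15% of 32851 windows of that length from all genes. Counted by windows, 23.3% of the 43 windows of the 35 genes held it. The longer form TCACGTGA, which contains the core, stood in 5 of the 35 genes and in 0.974% of all windows. The form TCATGTGA, which does not contain the core, stood in another list of 5 genes (Atp6v0c, Gla, Grn, Ppt1 and Tpp1), of which Gla also held the core, and in 0.986% of all windows. A match describes the letters only. The stretches below come from the 4 pump genes with the core, and from 3 genes with the core and their highest mean level in pregnancy. The 4 pump genes all had their highest mean level in lactation on the TMM-scaled counts used below, as 10 of all 15 pump genes did. With library totals this was not so for Atp6v0d1 and Atp6v1a. Each stretch reads in the direction of its gene, with the core in capitals.
Atp6v0e, V0 sector, chr17:26676387-26676416, plus strand, core just after the start: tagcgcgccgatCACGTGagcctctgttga
Atp6v0d1, V0 sector, chr8:105566050-105566079, minus strand, core across the start: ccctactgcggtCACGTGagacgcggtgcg
Atp6v0b, V0 sector, chr4:117887330-117887385, minus strand: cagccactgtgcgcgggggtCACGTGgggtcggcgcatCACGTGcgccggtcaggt
Atp6v1a, V1 sector, chr16:44139365-44139410, minus strand: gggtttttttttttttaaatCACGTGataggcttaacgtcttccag
Lamp1, membrane protein, chr8:13159080-13159160, plus strand: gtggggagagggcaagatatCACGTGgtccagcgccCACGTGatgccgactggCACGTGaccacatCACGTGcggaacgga
Glb1, hydrolase, chr9:114401010-114401055, plus strand: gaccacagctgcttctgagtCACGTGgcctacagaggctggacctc
Naglu, hydrolase, chr11:101070001-101070046, plus strand: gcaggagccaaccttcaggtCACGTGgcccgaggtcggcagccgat

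Lamp1 held 4 copies of the core within 81 bases, ending 9 bases before its start. The core was also present at Gaa, with its highest mean in lactation, and at Gla and Mcoln1, with theirs after weaning. The pump genes Atp6v0d1, Atp6v0e and Atp6v1a carried the longer form, as did Gla and Mcoln1. The 10 genes with the core and the 25 without it had median log2 fold changes of 0.32 and 0.26 in pregnancy against virgin, and of 0.18 and -0.25 in lactation against pregnancy, which are descriptions without a test.

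Library totals ran from 6926273 to 21204704 counts, and the CPM values used here divide counts by TMM-scaled library sizes. The TMM factors were 0.791, 0.792 and 1.094 in Lactating 1, 2 and 3, and 1.001 to 1.140 in the other stages. Scaling by TMM therefore raises Lactating 1 and 2 relative to library totals. Levels, and separations between libraries, are given on the TMM scale below. Lactating replicate 3 stood apart. It had the fewest detected genes (10178), it was the lowest of the 12 libraries for 21 of the 40 genes, and it lay below both other lactating libraries for 30 of them, against 5021 of the 12672 genes tested. Its median ratio to the mean of the other 2 lactating libraries was 0.712 over the pump genes, 0.438 over the hydrolases and 0.748 over all genes tested. Transcripts of 7 milk secretory genes made up 6.72% of its counts, against 0.132 to 0.144% in the other lactating libraries and at most 1.43% in any other library. Calls and group medians that rest on it are therefore given with and without it. The 10 macrophage markers were all detected and took 1.85 to 1.95% of counts in virgin, 4.22 to 4.36% in pregnant and 1.19 to 3.04% in lactating libraries, and 2.41 to 2.72% after weaning. The part of the milk and macrophage shares in the results below was not tested. Markers of fibroblasts, endothelium, lymphocytes, neutrophils, mast cells and adipocytes each took at most 0.0389% of any library, and luminal and basal epithelial markers 0.00784 to 0.0811%. The defining genes S100a9, Ly6g, Retnlg, Cpa3 and Plin1 were at 0 throughout.

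**Figure D1:**
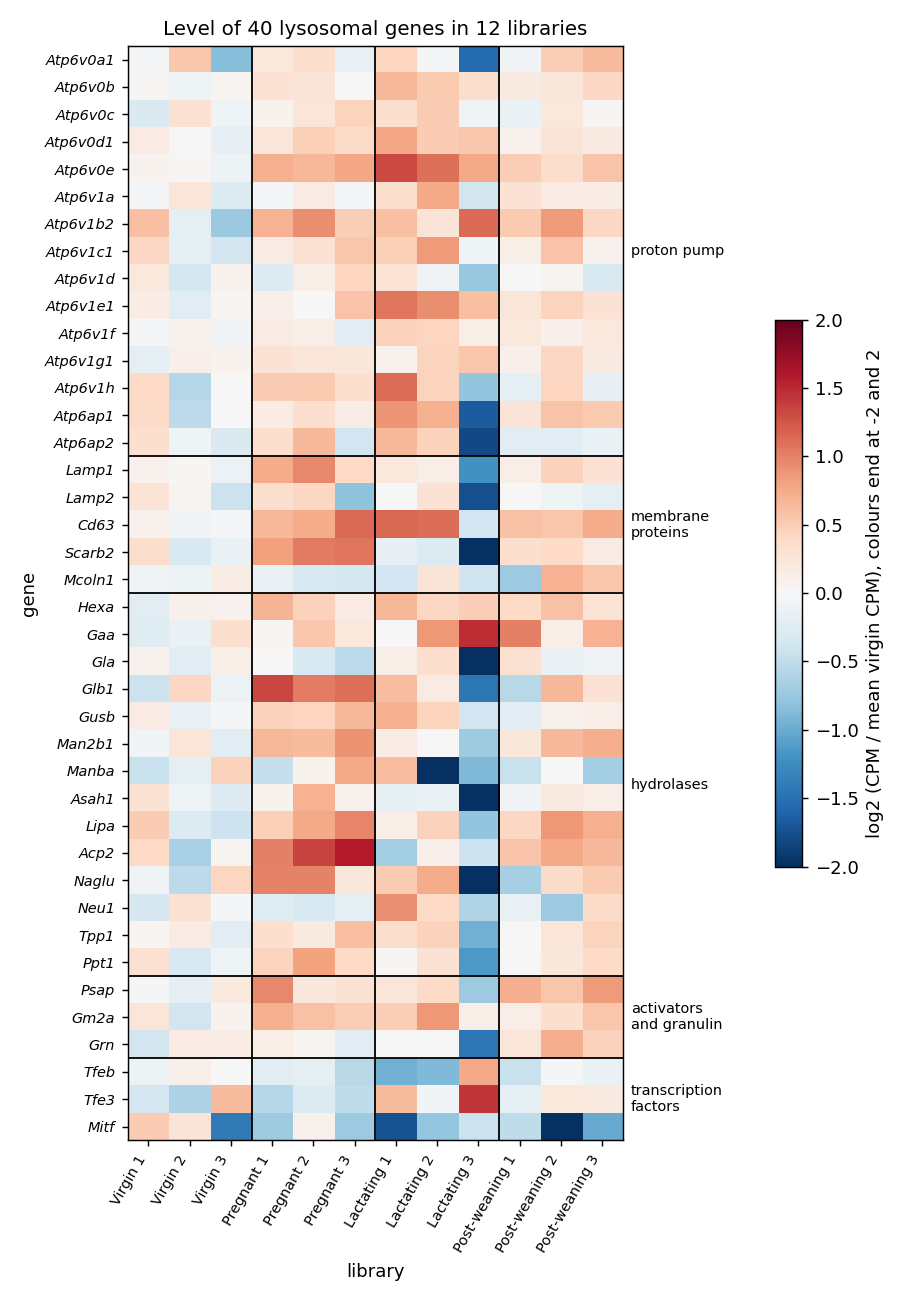
Heat map of 40 lysosomal genes (rows, grouped by role) in 12 libraries (columns, grouped by stage); colour is log2 of CPM over the mean virgin CPM, with colours ending at -2 and 2. Most membrane protein and hydrolase rows are red in the pregnant libraries, most pump rows are reddest in Lactating 1 and 2, and Lactating 3 is blue for most genes outside the pump and the transcription factors.

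On the TMM scale, most pump genes had their highest mean level in lactation and most hydrolases in pregnancy. Of the 15 pump genes, 10 had their highest mean in lactation, 3 in pregnancy and 2 after weaning. With library totals as the scaling, most pump genes were not highest in lactation, and only Atp6v0b, Atp6v0e and Atp6v1e1 still were. Of the 14 hydrolases, 10 had it in pregnancy, 3 in lactation and 1 after weaning. No gene of these groups was highest in virgin cells, against 23% of all genes tested. Over all genes tested, 28.3% were highest in lactation and 27.5% in pregnancy. Without Lactating replicate 3 the counts were 12 pump genes highest in lactation (25.7% of all genes) and 8 hydrolases highest in pregnancy (27.8%).

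The balance of the groups was followed as the mean log2 CPM of the 15 pump genes minus that of the 14 hydrolases, a within-library difference that scaling of the library hardly moves. It was 0.19, 0.08 and -0.13 in the virgin libraries, -0.12, -0.12 and -0.21 in the pregnant, 0.40, 0.52 and 0.81 in the lactating, and 0.12, 0.10 and -0.08 in the post-weaning libraries. The 3 lactating libraries lay above the other 9, and the 3 pregnant ones overlapped with a virgin library. On the TMM scale the nuclear RNA Malat1 was also higher in the lactating libraries than in the other 9. The margin was narrow for Lactating replicate 1, and with library totals that library is not above all virgin ones. Malat1 stood at 11883, 11789 and 7797 CPM in the virgin libraries, 6564, 5183 and 6817 in the pregnant, 12075, 16676 and 37476 in the lactating, and 10198, 6189.8 and 5679.6 after weaning. Its part in the difference was not tested. The stage means were 0.05 ± 0.17 in virgin, -0.15 ± 0.05 in pregnant and 0.58 ± 0.21 in lactating cells, and 0.05 ± 0.11 after weaning (SD, n = 3), and the lactating mean was 0.46 without replicate 3. As a score over chosen genes it is given without a test. Levels of different genes are compared here only as a change of the same difference between libraries, since counts also grow with transcript length.

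**Figure D2:**
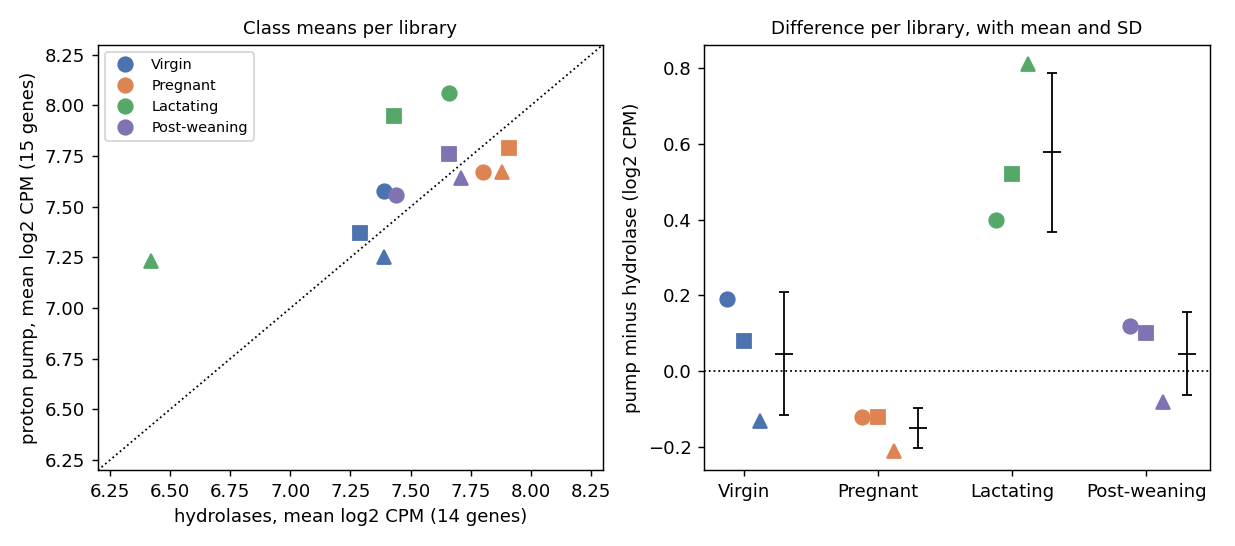
Left, mean log2 CPM of 15 pump genes (vertical) against that of 14 hydrolases (horizontal) in each library, with equality dotted; right, their difference per library with the stage mean and SD (circle, square and triangle are replicates 1, 2 and 3). The lactating libraries sit at 0.40 to 0.81 and the other 9 at -0.21 to 0.19.

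In pregnancy against virgin, 15 of the 40 genes were higher in every pregnant library than in any virgin library (13.6% of all genes tested) and 2 were lower (10.7%). The higher genes were 7 of the 14 hydrolases, 3 of the 15 pump genes, 3 of the 5 membrane proteins, and Psap and Gm2a. The median log2 fold change was 0.49 over the hydrolases, 0.72 over the membrane proteins, 0.25 over the pump and 0.03 over all genes. No single gene passed the edgeR test at an adjusted p under 0.05 (1.32% of all genes did). At an unadjusted p under 0.05 there were 9 genes, all higher in pregnancy (12.2% of all genes), and DESeq2 called 2 (5.2% of all genes) and limma-voom 1 (2.45%). Without Lactating replicate 3, which is of neither stage but enters the shared fit, edgeR tested 13426 genes and called 6 genes, all higher (3.26% of all genes): Atp6v0e, Lamp1, Cd63, Scarb2, Man2b1 and Acp2.

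In lactation against virgin, Atp6v0e rose and was the only gene called (1.94% of all genes), and 8 had an unadjusted p under 0.05 (16.8% of all genes). Without replicate 3, Atp6v1e1 and Cd63 were called higher as well (3 genes, 3.1% of all genes). Higher in every lactating than in any virgin library were 6 genes (8% of all genes), of which 5 belonged to the pump (Atp6v0b, Atp6v0d1, Atp6v0e, Atp6v1e1 and Atp6v1f) and 1 was the hydrolase Hexa. None was lower in every lactating library (9.34% of all genes). The median log2 fold change was 0.37 over the pump, 0.02 over the hydrolases and -0.06 over all genes. Without replicate 3 they were 0.52, 0.31 and -0.15. With library totals as the only scaling they were 0.14, -0.29 and -0.28.

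In lactation against pregnancy, the hydrolase Acp2 fell and was the only gene called (3.85% of all genes), and 9 had an unadjusted p under 0.05 (18.6% of all genes). Without replicate 3, Scarb2 was called lower too (2 genes, 5.13% of all genes). Lower in every lactating library were 8 genes (17.1% of all genes): the hydrolases Glb1, Man2b1, Asah1, Lipa, Acp2 and Ppt1, and the membrane proteins Lamp1 and Scarb2. Higher in every lactating library, on the TMM scale, were 4 (9.5% of all genes): the pump genes Atp6v0b, Atp6v0d1 and Atp6v1e1, and Tfe3. The median log2 fold change was -0.68 over the hydrolases, 0.12 over the pump and -0.14 over all genes. With library totals it was -1.05, -0.22 and -0.43, so the pump's sign depended on the scaling, while pump and hydrolases lay on either side of the median of all genes with each. Without replicate 3 the medians were -0.32 over the hydrolases, 0.27 over the pump and -0.25 over all genes, so that the hydrolases then lay close to the genes as a whole.

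After weaning, none of the 40 genes was called against any other stage by edgeR with all 12 libraries. Against virgin cells 11 genes, among them 5 pump genes, Psap and Grn, were higher in every post-weaning library (8.83% of all genes), and 0 were lower in every one (6.55%). edgeR called none of the 40 there (0% of all genes), 5 of the 40 had an unadjusted p under 0.05 (6.04% of all genes), and DESeq2 and limma-voom called 0 of the 40 (0.986% and 0.11% of all genes). Against pregnancy 2 genes were higher throughout (14% of all genes) and 6 lower (13.3%). edgeR called 0 of the 40 (0.718% of all genes), 1 had an unadjusted p under 0.05 (10.2% of all genes), and DESeq2 and limma-voom called 0 (3.99% and 1.39% of all genes). Against lactation 6 genes were higher throughout (12.8% of all genes) and 3 pump genes lower (8.76%). edgeR called 0 of the 40 (0.923% of all genes), 7 had an unadjusted p under 0.05 (15.1% of all genes), DESeq2 called 3 (7.25% of all genes) and limma-voom 0 (1.67%). Without Lactating replicate 3, Atp6v0e was called lower after weaning than in lactation (1 gene, 1.8% of all genes), and 0 were called against virgin (0.0745%) or pregnant cells (2.29%). Comparisons that share a stage share its libraries and are not independent of each other. Over any difference between the 4 stages, edgeR called Atp6v0e (adjusted p = 0.025) and Acp2 (adjusted p = 0.026), against 3.35% of all genes. Neither was called without Virgin replicate 3 or without any 1 of the pregnant or post-weaning libraries. Acp2 alone was called without Virgin replicate 1 or 2 or Lactating replicate 1 or 2, and 5 genes were called without Lactating replicate 3 (5.76% of all genes).

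**Figure D3:**
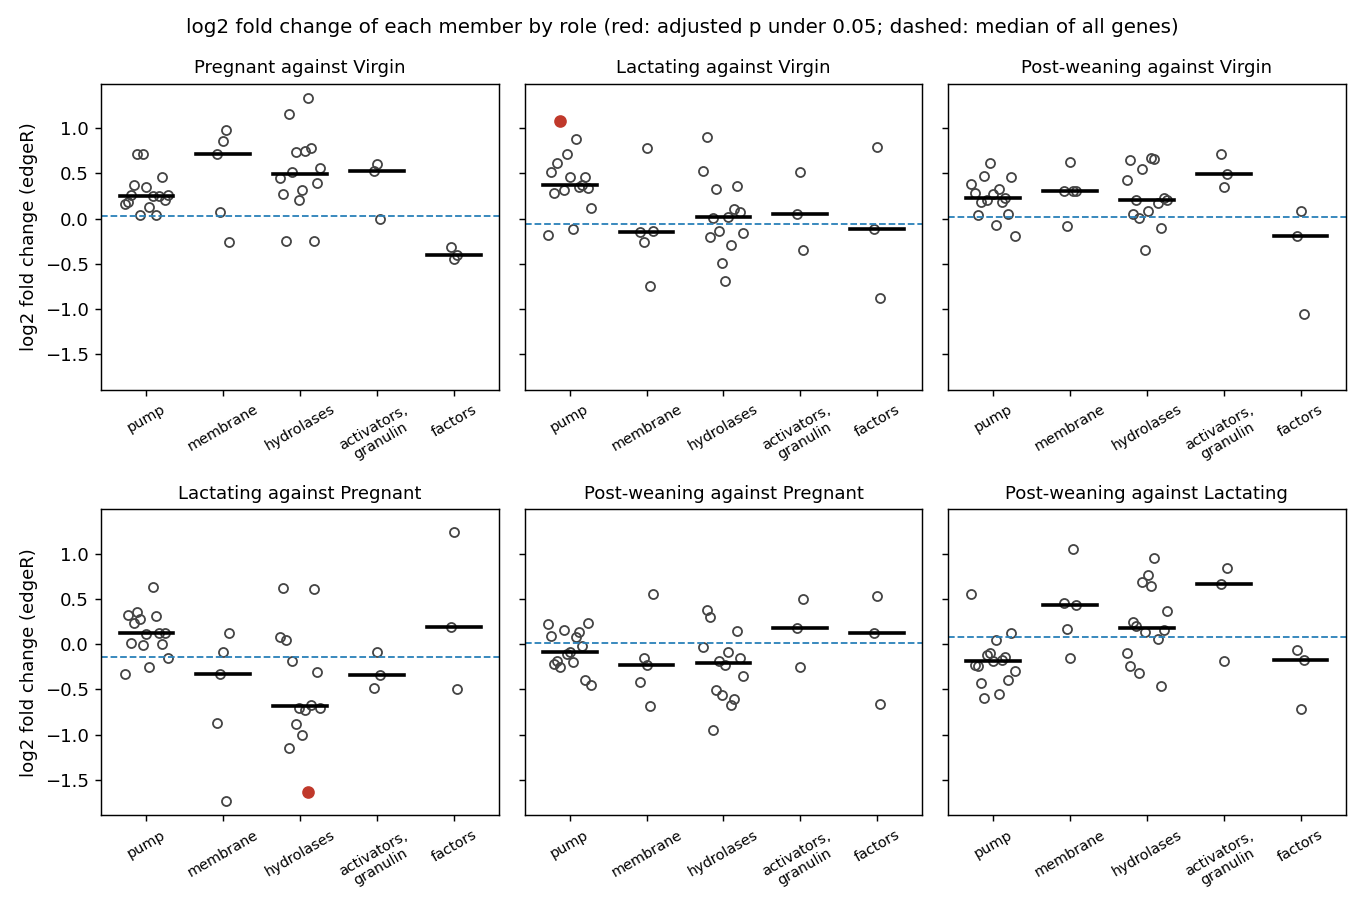
Log2 fold change of each of the 40 genes (circles) by role in the 6 comparisons; bars are medians of the role, the dashed line is the median of all genes tested, and red marks an adjusted p under 0.05. The medians of pump and hydrolases are 0.12 and -0.68 in lactation against pregnancy, and the 2 red points are Atp6v0e in lactation against virgin and Acp2 in lactation against pregnancy.

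The V0 sector carries protons through the membrane. Atp6v0e encodes its small e subunit, on chromosome 17 from 26676396 to 26699647. Its level was 282, 273 and 249 CPM in the virgin libraries, 439, 426 and 458 in the pregnant, 669, 573 and 455 in the lactating, and 377, 341 and 397 after weaning. The virgin libraries were lowest and overlapped with no other stage, and on the TMM scale the lactating range touched the pregnant one only through replicate 3. The log2 fold change in lactation against pregnancy was 0.36 with TMM and 0.05 with library totals. Atp6v0e rose in lactation against virgin with a log2 fold change of 1.08 ± 0.18 (SE, adjusted p = 0.0119), or 1.17 ± 0.15 without Lactating replicate 3 (adjusted p = 0.00209). The call was lost without Virgin replicate 3 (adjusted p = 0.0572) and when only the 6 libraries compared were fitted (adjusted p = 0.229). In pregnancy against virgin its log2 fold change was 0.72 ± 0.18 (adjusted p = 0.0857), and it was called without Lactating replicate 3 (adjusted p = 0.0139).

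Among the other V0 genes, Atp6v0b and Atp6v0d1, named after their values were seen, were higher in every lactating library than in any virgin or pregnant one. This separation is on the TMM scale. With library totals neither gene keeps every lactating library above the pregnant ones. Atp6v0b encodes a proteolipid of the proton-carrying ring, and stood at 359.7, 335 and 369 CPM in virgin, 431, 425 and 353 in pregnant and 554, 507 and 453 in lactating libraries, and 403, 415 and 473 after weaning. Atp6v0d1 encodes the subunit that joins the ring to the central stalk, and stood at 121, 107 and 96.1 CPM in virgin, 128, 150.3 and 141 in pregnant and 184, 154 and 157 in lactating libraries, and 115, 129 and 123 after weaning. Their log2 fold changes in lactation against virgin were 0.51 ± 0.17 (adjusted p = 0.151) and 0.61 ± 0.18 (adjusted p = 0.115), short of the threshold. Atp6v0c, the other ring proteolipid, ranged from 107 to 186 CPM over the 12 libraries, and reads of its named pseudogenes may be split with it. Atp6v0a1, the large subunit of the proton path, ranged from 13.9 CPM in Lactating 3 to 62.4.

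The V1 sector splits ATP. Atp6v1e1 encodes a subunit of its peripheral stalk, on chromosome 6 from 120795244 to 120822698. It stood at 201, 156 and 187 CPM in the virgin libraries, 195, 180.3 and 270.5 in the pregnant, 382, 347 and 274 in the lactating, and 214, 248 and 222 after weaning. Every lactating library was above all 9 others, by a narrow margin for replicate 3. That holds on the TMM scale but not with library totals. The log2 fold change in lactation was 0.88 ± 0.21 against virgin (adjusted p = 0.059) and 0.64 ± 0.21 against pregnancy (adjusted p = 0.129). With library totals in edgeR these were 0.63 (adjusted p = 0.141) and 0.32 (adjusted p = 0.386). Without replicate 3 it rose against virgin by 0.96 ± 0.21 (adjusted p = 0.0301).

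The ranges of Atp6v1a and Atp6v1b2 overlapped between all stages. Atp6v1a, which holds the catalytic site, had stage means of 227 ± 41.3 CPM in virgin, 234 ± 18.8 in pregnant and 284 ± 104 in lactating libraries, and 262 ± 14 after weaning. Its partner Atp6v1b2 had 96.1 ± 45.5, 158 ± 23.8, 157 ± 49.1 and 146 ± 23.3 CPM in the same order. Of the regulatory and stalk subunits, Atp6v1f was higher in each lactating library (189 to 241 CPM) than in any virgin one (168 to 184). Atp6v1c1, Atp6v1d, Atp6v1g1 and Atp6v1h overlapped between virgin and lactating libraries, and ranged over the 12 libraries from 18.7 to 31.1 CPM for Atp6v1g1 to 215 to 500.1 CPM for Atp6v1c1.

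The accessory proteins Atp6ap1 and Atp6ap2 help assemble and target the pump. Atp6ap2, on chromosome X from 12587759 to 12617051, stood at 1665, 1254 and 1092 CPM in virgin, 1699.8, 2090.3 and 1029.5 in pregnant and 2119.9, 1847 and 384 in lactating libraries, and 1149, 1160.4 and 1214 after weaning. Lactating replicate 3 was the lowest of the 12 libraries and replicate 1 the highest. Atp6ap1 did the same within lactation, at 664, 589 and 113 CPM. In replicate 3 these genes were at 0.194 and 0.181 of the mean of the other lactating libraries, while the V1 genes Atp6v1b2 and Atp6v1g1 were at 1.62 and 1.21.

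**Figure D4:**
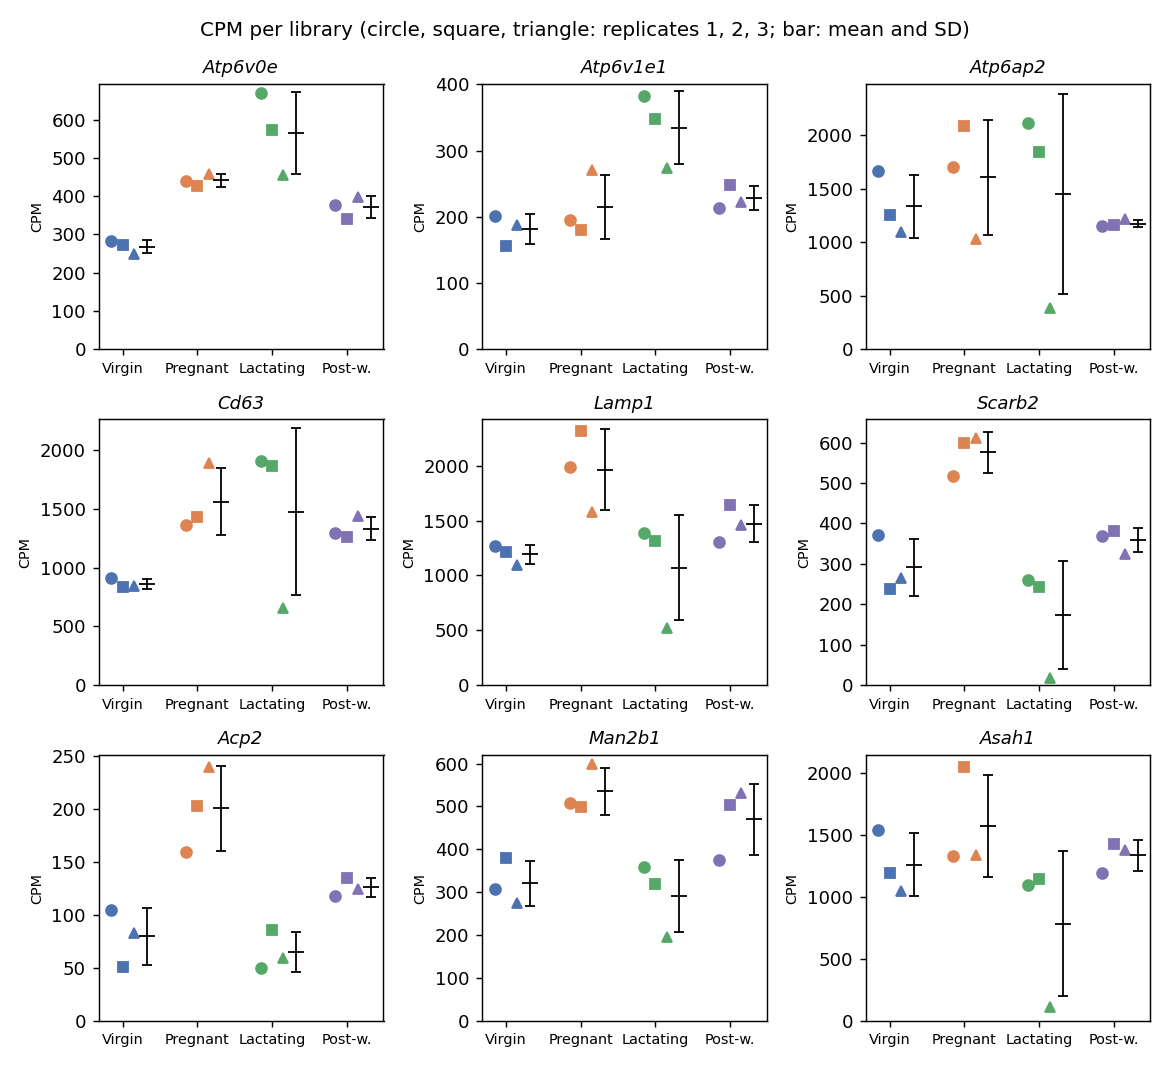
CPM of 9 genes in each library by stage, on linear axes from 0; symbols are replicates 1 (circle), 2 (square) and 3 (triangle), bars the stage mean and SD. Atp6v0e and Atp6v1e1 are highest in lactation, Acp2, Man2b1, Lamp1 and Scarb2 are highest in pregnancy, and the lactating triangle is the lowest point for Atp6ap2, Cd63, Lamp1, Scarb2, Man2b1 and Asah1.

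Of the 5 membrane proteins, 4 had their highest mean in pregnancy and Mcoln1 after weaning. With Lactating replicate 3 left out it was 2 in pregnancy (Lamp1 and Scarb2), 2 in lactation (Lamp2 and Cd63) and 1 after weaning. Lamp1, a main glycoprotein of the lysosomal membrane on chromosome 8 from 13159161 to 13175338, stood at 1265, 1215 and 1098 CPM in virgin and 1994, 2317 and 1579 in pregnant libraries. It stood at 1386, 1313 and 517 in lactating and 1310.0, 1645 and 1462 in post-weaning libraries. The pregnant libraries lay above all virgin and lactating ones and overlapped with the post-weaning range. The log2 fold change was 0.72 ± 0.32 in pregnancy against virgin (adjusted p = 0.392) and -0.87 ± 0.32 in lactation against pregnancy (adjusted p = 0.164). Without Lactating replicate 3 the rise in pregnancy was called at 0.72 ± 0.15 (adjusted p = 0.0241).

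Cd63 encodes a tetraspanin of late endosomes and lysosomes, on chromosome 10 from 128896231 to 128912822. It stood at 910.1, 833 and 842 CPM in virgin, 1360.3, 1436 and 1891 in pregnant and 1906, 1867 and 658 in lactating libraries, and 1292, 1259 and 1443 after weaning. Every library outside the virgin stage was higher than all virgin ones except Lactating replicate 3, which was lower. Its log2 fold change was 0.86 ± 0.33 in pregnancy (adjusted p = 0.321) and 0.78 ± 0.33 in lactation (adjusted p = 0.26), each against virgin. Without replicate 3 it rose by 0.86 ± 0.15 (adjusted p = 0.00743) and 1.08 ± 0.16 (adjusted p = 0.00465). A Cd63 pseudogene is annotated, and reads could be split with it.

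Scarb2, chosen after its values were seen, encodes the receptor that carries glucocerebrosidase to the lysosome. It stood at 372, 237 and 265 CPM in virgin, 517, 598 and 612 in pregnant and 259, 242 and 18 in lactating libraries, and 369, 382 and 325 after weaning. The pregnant libraries lay above the other 9. The log2 fold change in lactation against pregnancy was -1.74 ± 0.65 (adjusted p = 0.178), and without replicate 3, whose level was 0.0718 of the mean of its stage partners, it fell by 1.25 ± 0.21 on the log2 scale (adjusted p = 0.00464). In pregnancy against virgin it rose by 0.99 ± 0.18 in that fit (adjusted p = 0.0114). Lamp2, the other main membrane glycoprotein, ranged from 549 CPM in Lactating 3 to 2482 in Pregnant 2 with all stages overlapping. The calcium channel gene Mcoln1 ranged from 26.7 to 71.7 CPM, and stood in every pregnant library (34.4 to 40.3) below every virgin one (41.1 to 49.1).

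Acp2, the lysosomal acid phosphatase on chromosome 2 from 91202812 to 91214098, showed the clearest difference among the hydrolases. It stood at 105, 51.1 and 83 CPM in virgin, 159.9, 203 and 240.1 in pregnant and 49.6, 85.7 and 59.6 in lactating libraries, and 118, 135 and 125 after weaning. The pregnant libraries were the 3 highest, the post-weaning libraries came next, and the virgin and lactating ranges overlapped. It fell from pregnancy to lactation, with a log2 fold change of -1.63 ± 0.30 (adjusted p = 0.0106), and of -1.63 ± 0.34 without Lactating replicate 3 (adjusted p = 0.0169). Fitted on those 6 libraries alone it was not called (adjusted p = 0.0604). In pregnancy against virgin the log2 fold change was 1.34 ± 0.30 (adjusted p = 0.0547), and it was called without Lactating replicate 3 (adjusted p = 0.0289).

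Acp2 overlaps Nr1h3, which encodes a nuclear receptor for oxysterols, and Ddb2, and the strand setting of the counting is not given, so reads in the overlap cannot be told apart. Nr1h3 stood at 59.8, 63.1 and 71.3 CPM in pregnant and 8.84, 11.1 and 1.14 in lactating libraries, a log2 fold change of -3.21 (adjusted p = 0.0351). Its part in the fall of Acp2 was not tested.

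Man2b1, the lysosomal alpha-mannosidase on chromosome 8 from 85082730 to 85098739, had a similar order of stages. It stood at 308, 379 and 275 CPM in virgin, 508, 499 and 599 in pregnant and 358, 318 and 196 in lactating libraries, and 375, 504 and 531 after weaning. Every pregnant library lay above all virgin and lactating ones. The log2 fold change was 0.74 ± 0.24 in pregnancy against virgin (adjusted p = 0.236) and -0.88 ± 0.25 in lactation against pregnancy (adjusted p = 0.0736). Without Lactating replicate 3 the rise in pregnancy was called at 0.75 ± 0.18 (adjusted p = 0.0494).

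Asah1, acid ceramidase on chromosome 8 from 41340646 to 41397644, was the hydrolase with the highest level per kilobase. It stood at 1546, 1192 and 1052 CPM in virgin, 1329, 2049 and 1339.8 in pregnant and 1099, 1148 and 109 in lactating libraries, and 1198, 1432 and 1384 after weaning. Lactating replicate 3 was at 0.0971 of the mean of its stage partners, and the other lactating libraries lay within the virgin range. The log2 fold change in lactation against pregnancy was -1.0 ± 0.60 (adjusted p = 0.396), and -0.53 ± 0.22 without replicate 3 (adjusted p = 0.218).

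The hydrolases of glycolipids and glycans went several ways. Glb1, beta-galactosidase, had stage means of 47.9 ± 14.6 CPM in virgin, 107 ± 12.4 in pregnant and 48.3 ± 28.3 in lactating libraries, and 55.5 ± 21.6 after weaning. Its log2 fold changes were 1.16 ± 0.47 in pregnancy against virgin (adjusted p = 0.349) and -1.15 ± 0.47 in lactation against pregnancy (adjusted p = 0.216). Hexa, which encodes a subunit of the enzyme that trims the ganglioside GM2, had means of 395 ± 46.5, 541 ± 94, 569.7 ± 52.5 and 531 ± 59.3 CPM, with the virgin stage lowest and no overlap of virgin with any other stage. Gusb, beta-glucuronidase, had 396 ± 45.3, 567 ± 48.9, 497 ± 177 and 398 ± 52.6 CPM. The heparan sulfate enzyme Naglu and the galactosidase gene Gla were at 6.67 and 31.9 CPM in Lactating 3, under the lowest of the other 11 libraries for each.

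For the glycogen enzyme Gaa, by contrast, Lactating 3 was the highest library, at 148 CPM against 45.2 to 107 elsewhere. The stages of the sialidase Neu1 and the beta-mannosidase Manba all overlapped, and Manba had the fewest counts of the 40 genes in 1 library (11 counts, 2.01 CPM in Lactating 2).

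Of the lipid and protein hydrolases, Ppt1 and Tpp1 stood in every pregnant library above all virgin ones. Lipa, which splits cholesteryl esters and triglycerides from engulfed lipid, had stage means of 409.9 ± 149 CPM in virgin, 691 ± 119 in pregnant and 417 ± 167 in lactating libraries, and 654 ± 100.2 after weaning. Its log2 fold change in lactation against pregnancy was -0.73 ± 0.33 (adjusted p = 0.262). Ppt1, which removes fatty acids from proteins, had 904 ± 198, 1329.6 ± 212, 810.2 ± 362 and 1044 ± 146 CPM. The peptidase Tpp1 had 241 ± 31.6, 315 ± 47.3, 254 ± 113 and 284 ± 44 CPM. None of these passed the test in any comparison with TMM and all 12 libraries. With library totals, Lipa and Ppt1 were called in lactation against pregnancy (4.48% of all genes were called).

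The activator proteins present lipids to the hydrolases. Psap, the precursor of the saposins on chromosome 10 from 60277628 to 60302600, stood at 2052, 1868 and 2407 CPM in virgin, 4086, 2463 and 2580.0 in pregnant and 2493, 2762 and 1276 in lactating libraries, and 3480.4, 3092 and 3787 after weaning. The post-weaning libraries lay above all virgin and lactating ones, and the pregnant range spanned them. Its log2 fold change was 0.71 ± 0.30 after weaning against virgin (adjusted p = 0.811) and 0.67 ± 0.30 against lactation (adjusted p = 0.319).

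Gm2a, the GM2 activator on chromosome 11 from 55097985 to 55113029, stood at 653, 429.6 and 582 CPM in virgin, 909, 834 and 779.6 in pregnant and 781, 1012 and 599 in lactating libraries, and 610.1, 694 and 811 after weaning. Its pregnant libraries were above the virgin ones, with a log2 fold change of 0.60 ± 0.23 (adjusted p = 0.326). Grn, progranulin, was highest after weaning, at 420.2, 592 and 491 CPM against 131 to 399 in the other 9 libraries. Its log2 fold change was 0.49 ± 0.33 against virgin (adjusted p = 1) and 0.84 ± 0.33 against lactation (adjusted p = 0.263).

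Among the transcription factors, Tfeb and Mitf had their highest mean in virgin cells and Tfe3 in lactation. Tfeb, on chromosome 17 from 47737037 to 47792416, stood at 37.1, 42.5 and 39.5 CPM in virgin, 34.2, 34.6 and 27.1 in pregnant and 20.4, 21.6 and 67 in lactating libraries, and 29.2, 39 and 36.3 after weaning. Within lactation replicate 3 was the highest of the 12 libraries and the other 2 were the lowest. Tfe3, on chromosome X from 7762530 to 7775202, stood at 49, 40.3 and 95.9 CPM in virgin, 41.5, 50.9 and 43.4 in pregnant and 95.8, 59.2 and 166 in lactating libraries, and 54, 71.3 and 70.3 after weaning. Every lactating and post-weaning library was above the pregnant ones, and the virgin range overlapped with all stages. The log2 fold change of Tfe3 in lactation against pregnancy was 1.24 ± 0.40 (adjusted p = 0.123), and 0.73 ± 0.37 without replicate 3 (adjusted p = 0.322). Mitf, on chromosome 6 from 97807002 to 98021360, stood at 36.3, 30.4 and 9.58 CPM in virgin, 15.5, 27.1 and 15.4 in pregnant and 7.62, 14.8 and 18.8 in lactating libraries, and 17.9, 6.02 and 12.7 after weaning, with no test passed. Activity of these factors is set largely by where the protein sits in the cell, which transcript counts do not show.

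Levels were compared between genes only per kilobase of the deposited gene length, as RPKM averaged over the 12 libraries. Cd63 was highest at 1262 ± 419 RPKM (SD, n = 12), followed by Psap at 987 and Lamp1 at 632. Atp6ap2 at 588, Asah1 at 551 and Atp6v0e at 516 came next. The ranges over libraries of these 6 genes overlapped with their neighbours in the order. At the other end were Tfeb at 12.6, Atp6v0a1 at 10.8, Manba at 7.97 and Mitf at 3.41 RPKM. The pump genes spread from 10.8 to 588 RPKM, with Atp6v0e, the called subunit, the highest of the V0 and V1 genes.

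**Figure D5:**
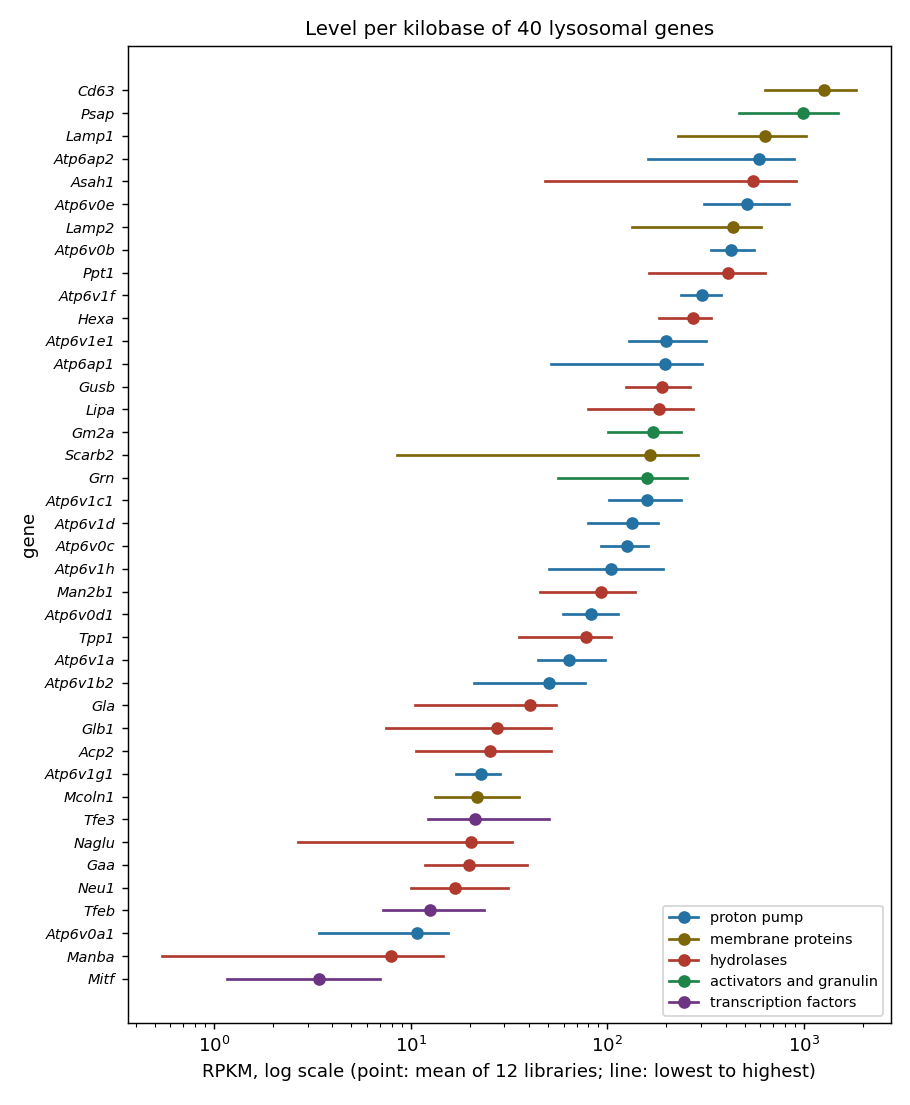
Level per kilobase (RPKM, log axis) of the 40 genes, ordered by their mean over 12 libraries; points are means, lines run from the lowest to the highest library, and colour gives the role. Over all roles the means run from Cd63 at 1262 to Mitf at 3.41 RPKM.

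A further 94 genes of the same pathways were counted in lists chosen by function. Of 28 other hydrolases and carriers, edgeR called 0 in any of the 6 comparisons, 7 had an unadjusted p under 0.05 in at least 1 of them, and DESeq2 called 4 and limma-voom 1. Of 15 tested pump isoforms and assembly factors, edgeR called 0, 6 had such a p, and DESeq2 called 2 and limma-voom 2. Of all genes tested, edgeR called 5.1% in at least 1 comparison, 35.2% had such a p, and DESeq2 called 18.8% and limma-voom 8.07%. In pregnancy against virgin the median log2 fold change was 0.29 over the other hydrolases and carriers and 0.26 over the isoforms and assembly factors (0.03 over all genes). In lactation against pregnancy it was -0.25 and -0.36 (-0.14 over all genes). There the isoforms and assembly factors lay below the other hydrolases, unlike the pump genes among the 40. Their median includes Atp6v0d2, Atp6v0e2, Atp6v1b1, Atp6v1c2 and Atp6v1g2, near the floor at means of at most 2.97 CPM in these stages. The medians of these lists were taken with all 12 libraries only. Of 11 tested lysosomal membrane proteins outside the 40 genes, 5 had such a p, and DESeq2 called 2 and limma-voom 1. edgeR called 1 (9.09%, against 5.1% of all genes), Slc11a1, which encodes a metal transporter of phagosomes. It stood at 232, 383 and 449 CPM in virgin, 157, 115 and 113 in pregnant and 840.0, 938 and 430.4 in lactating libraries, and 554, 567 and 607 after weaning. It was lowest in pregnancy, where Acp2 and Scarb2 were highest. It fell in pregnancy against virgin with a log2 fold change of -1.47 ± 0.31 (adjusted p = 0.0466). It rose in lactation against pregnancy by 2.52 ± 0.32 (adjusted p = 0.00146) and after weaning against pregnancy by 2.17 ± 0.32 (adjusted p = 0.0156).

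Of 14 autophagy genes, 4 had an unadjusted p under 0.05 in at least 1 comparison (35.2% of all genes). DESeq2 called 3 (18.8% of all genes) and limma-voom 1 (8.07%). edgeR called 1 (5.1% of all genes), Sqstm1, which encodes the cargo receptor p62 and is itself delivered to lysosomes. It stood at 882, 1203 and 964 CPM in virgin, 447, 485 and 469.6 in pregnant and 2039, 2025 and 2424 in lactating libraries, and 900.0, 903 and 986 after weaning. The pregnant and the lactating libraries overlapped with no other stage. Its log2 fold change was -1.12 ± 0.18 in pregnancy against virgin (adjusted p = 0.0123), and it rose in lactation against virgin by 1.09 ± 0.18 (adjusted p = 0.0112) and against pregnancy by 2.21 ± 0.18 (adjusted p = 0.000148). After weaning it was called higher than in pregnancy (0.99 ± 0.18, adjusted p = 0.03) and lower than in lactation (-1.22 ± 0.18, adjusted p = 0.00987). Each of these calls of Slc11a1 and Sqstm1 stood without Lactating replicate 3. Of 22 genes that control TFEB through mTORC1 and calcineurin, 11 had an unadjusted p under 0.05 in at least 1 comparison. DESeq2 called 4 and limma-voom 1. edgeR called 1 (4.55%, against 5.1% of all genes): Ppp3ca, a catalytic subunit of calcineurin, rose in lactation against pregnancy by 1.21 ± 0.26 (adjusted p = 0.0255). It stood at 102, 67.5 and 94.7 CPM in virgin and 40.6, 36 and 42 in pregnant libraries. In lactating libraries it stood at 99.3, 101 and 74.8 CPM, and after weaning at 74, 88.5 and 53.2. The pregnant libraries were thus the lowest, and the lactating range overlapped with the virgin one. In sorted cells measured in bulk, fewer cells of a kind and less RNA per cell cannot be told apart for any of these genes.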

How the data were processed

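Per the labels' protocols, RNA from freshly sorted cells was made into cDNA with SMART-Seq v4, a full-length kit without molecular identifiers, and sequenced in 1 run. The authors deposited raw counts per gene, made with featureCounts on mm10 per the submitters' processing notes. Not given in the sources used here were the aligner, versions and strand setting. Symbols and coordinates (1-based) came from the RefSeq GRCm38.p6 table, which matched 25275 genes (93%).

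Members and lists were chosen with earlier results of these data known. Genes were filtered with filterByExpr by stage and scaled by TMM. All 12 libraries entered 1 quasi-likelihood fit in edgeR 4.0.16 (R 4.3.3), robust and with stage means as its terms (common biological coefficient of variation 0.856), with Benjamini-Hochberg adjustment over 12672 genes. Adjusted p-values come from it unless another tool is named, and calls are at 0.05. CPM and RPKM were computed here. The procedure was run on simulated counts in which no library stood apart, so that run does not bear on Lactating replicate 3. Alternatives were DESeq2 1.42.0, limma-voom 3.58.1, RLE size factors, other filters, a replicate block, the 6 libraries compared, leaving out each library, and, chosen after seeing the data, library totals without TMM. Values in every library are printed for called genes, for the 2 genes of each role with the smallest p over any stage, for the gene of each role with the highest level per kilobase, and for the 3 transcription factors.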

Additional observations from a re-analysis of the deposited data

How the results depend on the processing

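None of the 25 fold changes of named genes with an unadjusted p under 0.05 reversed under the alternatives run, but medians over groups did. The sign changed without Lactating replicate 3 in lactation against virgin for the membrane proteins (-0.15 to 0.10), in lactation against pregnancy for the membrane proteins (-0.33 to 0.03), the transcription factors (0.19 to -0.66) and all 40 genes (-0.08 to 0.02), and after weaning against lactation for the hydrolases (0.18 to -0.02) and the transcription factors (-0.17 to 0.19). With library totals it changed in lactation against virgin for the hydrolases (0.02 to -0.29, and -0.03 with RLE) and all 40 genes (0.11 to -0.22), in lactation against pregnancy for the pump (0.12 to -0.22), and after weaning against lactation for the pump (-0.19 to 0.03) and all 40 genes (-0.08 to 0.13).

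Counts of the 40 genes called moved as follows, with the share of all genes called in brackets. In pregnancy against virgin, 0 became 2 with DESeq2 (5.2%), 1 with limma-voom (2.45%), 1 with no filter on low counts (0.89%), 1 with a filter of 5 CPM in 3 libraries (1.83%), and 2 with library totals (1.37%), and 0 to 6 when 1 library was left out. In lactation against virgin, 1 became 4 with DESeq2 (9.16%) and 0 with only the 6 libraries compared (0%), and ranged from 0 (without Virgin replicate 3) to 3 (without Lactating replicate 3). In lactation against pregnancy, 1 became 6 with DESeq2 (11.6%), 3 with limma-voom (5.57%), 5 with library totals (4.48%) and 0 with the 6 libraries (1.35%), and ranged from 1 to 2. After weaning, 0 became 1 against pregnancy with the 6 libraries (5.02%), and against lactation 3 with DESeq2 (7.25%) and 0 to 1 when 1 library was left out. Over any stage, 2 became 5 with DESeq2 (11.5%), 4 with library totals (3.38%) and 0 to 5 when 1 library was left out. The cause of these shifts was not tested. Of 500 alternative fold changes of single genes, 470 kept their direction and side of the threshold, 27 gained a call and 3 lost one. The pump minus hydrolase difference in pregnancy was -0.25 with medians in place of means over genes, and 27 of 28 alternative values moved by less than 1 SD.

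Replicate numbers did not pair the libraries. The 18 correlations between same-numbered libraries ran from -0.07 to 0.07, and 2 of 12 libraries correlated best with their own number. With the replicate number as a block, 0 of the 40 genes were called over any stage, and the counts in the 6 comparisons did not move.

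Over all genes, DESeq2 called 659, 1161, 125, 1465, 505 and 919 genes where edgeR called 167, 246, 0, 488, 91 and 117 (pregnancy, lactation and post-weaning against virgin, lactation and post-weaning against pregnancy, and post-weaning against lactation), and limma-voom called 311, 274, 14, 706, 176 and 211. With 1 library left out the ranges were 40 to 438, 111 to 416, 0 to 10, 194 to 689, 1 to 308 and 26 to 242, each highest without Lactating replicate 3. With only the 6 libraries compared edgeR called 230, 0, 1, 147, 590 and 3, and with the block 100, 139, 0, 346, 35 and 42. Over any stage it called 424, against 1455 with DESeq2, 764 with limma-voom, 223 with the block and 171 to 773 with 1 library left out. With 3 libraries a stage and a spread this wide, a gene that misses the threshold is not shown to be unchanged.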

Other observations

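Pump subunits exist in forms restricted to some tissues, and their levels in these cells were read from the list of isoforms and assembly factors, named here after their values were seen. Tcirg1, the large V0 subunit of osteoclasts and macrophages, stood at 175, 209 and 218 CPM in virgin, 175, 166 and 196 in pregnant, 238, 327 and 416 in lactating, and 172, 179 and 229 in post-weaning libraries. On the TMM scale its lactating libraries lay above the other 9, as those of Atp6v1e1 did, and no comparison passed edgeR's test. Per kilobase it averaged 68.1 RPKM, against 10.8 for Atp6v0a1 and 9.6 for Atp6v0a2, the other large subunits detected. Atp6v0a4, the large subunit of kidney, had 0 counts in every library.

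Atp6v1b1, the B subunit known from acid-secreting cells of the kidney, stood at 78.6, 55.8 and 28.9 CPM after weaning, at 0.115, 0 and 31.6 in virgin libraries, at 1.56, 0.229 and 1.49 in pregnant libraries and at 0 in all lactating ones. The 3 post-weaning libraries and Virgin replicate 3 were the only ones above 1.56 CPM, and no comparison passed edgeR's test. Atp6v0d2, a V0 subunit of osteoclasts and some macrophages, stood at 7.97, 12.2 and 0 CPM after weaning, at 0.334, 0.459 and 3.89 in pregnancy, and at 0 in virgin and lactating libraries.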
